A study of Mus musculus with 9 samples.

Results

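The genes described here are 10 targets or partners of serum response factor (SRF) that build or regulate the actin cytoskeleton: Vcl, Tpm1, Tpm2, Tagln, Acta2, Cnn1, Cnn2, Myl9, Fhl2 and Srf itself. They were taken by gene name from the deposited table, which held 33495 gene rows, and each name matched a single row. RNA was sequenced from genetically labelled neural crest cells sorted out of cultured C57BL/6 mouse embryos at E9.5, in 9 samples that formed 3 groups of 3. In the first group the crest carried a conditional mutation of the transcription factor gene Mef2c and the explants received 10 µM endothelin-1 (ET-1), a secreted peptide ligand for receptors on arch crest. The second group was wild type with 10 µM ET-1, and the third was wild type with phosphate-buffered saline (PBS). All explants lacked the head above the first arch and the tail, recovered for 1 h, and were then cultured for 12 to 15 h with ET-1 or PBS. The sources used here do not give the Cre line or promoter behind the deletion and the label, or say whether embryos were pooled. No mutant with PBS was analysed here, and a difference that needs no ET-1 and an altered ET-1 response cannot be told apart.

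SRF is a MADS-box transcription factor that binds the CArG box, a short element with an A/T-rich core. It works with 2 kinds of partner: myocardin-related factors (MRTFs), which are held back by free actin monomers and freed when actin polymerises, and ternary complex factors, which are switched on by MAP kinases. The first kind is best known for cytoskeletal and smooth muscle genes, and the second for immediate early genes. MEF2C is a MADS-box protein too, and binds a related A/T-rich element. In the embryo, crest cells of the arches later supply smooth muscle of the great arteries, where most of these genes are abundant.

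CArG boxes stood in the promoter windows of 5 of the 9 members that had a window, and the stretches that hold them are shown because these are the elements that name the group. RefSeq promoter windows (build GRCm38.p6, 250 bases before to 50 bases after the start) were found for 9 members, and Fhl2 had 2 windows. No window was found for Tagln, so its promoter was not searched. A box was counted where CC, 6 letters of A or T, and GG followed each other, a pattern that reads the same on both strands. Of the 9 members, 5 held at least 1 such box (Vcl, Cnn2, Myl9, Fhl2 and Srf), against 1.81% of all 27025 genes with a window. Since the genes were chosen as SRF-type genes, this share describes them and is no finding. In the sequences, capitals mark each box and lower case its surroundings, written 5′ to 3′ on the strand of the gene.
Vcl, chr14:20929151-20929200, plus strand: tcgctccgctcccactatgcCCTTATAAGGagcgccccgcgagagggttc
Fhl2, upstream start, chr1:43196828-43196877, minus strand: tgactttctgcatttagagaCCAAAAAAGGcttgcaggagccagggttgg
Fhl2, downstream start, chr1:43163963-43164012, minus strand: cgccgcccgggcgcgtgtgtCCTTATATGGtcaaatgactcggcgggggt
Srf, chr17:46556195-46556264, minus strand: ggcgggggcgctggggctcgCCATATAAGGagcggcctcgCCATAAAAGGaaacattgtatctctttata
Cnn2, chr10:79988524-79988573, plus strand: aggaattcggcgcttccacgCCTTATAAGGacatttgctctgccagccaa
Myl9, chr2:156775283-156775332, plus strand: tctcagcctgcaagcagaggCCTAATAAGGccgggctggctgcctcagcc

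The boxes of Vcl and Cnn2 had the same 10 letters, at 227 and 56 bases before the start. Srf held 2 boxes, at 82 and 62 bases before its start. Fhl2 held 1 in each window, at 96 and 31 bases. Acta2 and Tpm1 had no exact box, but each had 2 elements that differed from the pattern by a single letter. Such near matches are common, since 23.8% of all genes held an exact or near match. The Tpm1 pair, at 221 and 80 bases before the start, is not shown. The Acta2 pair is shown because it lies close to the start, in a gene that had its lowest level in the mutant. A link between these elements and the level was not tested.
Acta2, chr19:34255378-34255477, minus strand: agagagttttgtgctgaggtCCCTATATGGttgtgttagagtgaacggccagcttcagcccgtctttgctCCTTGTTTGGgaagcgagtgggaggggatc
The windows of Tpm2 and Cnn1 held neither an exact nor a near match. The MEF2 element was searched on both strands. It was found in 1 of the 9 members with a window, against 3.70% of all 27025 genes with a window. That element lay 31 bases before the upstream start of Fhl2 and clear of the CArG box there. These matches say nothing of binding in crest cells.

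Values in the table were FPKM (a fragment count divided by transcript length and by the depth of the group), which are scaled to gene length and can be compared between genes. The table held a single FPKM for each group of 3 samples, so no value here has a replicate error. Depth, recovered from genes with a single exon, came to 46930101 pooled reads in the mutant with ET-1, 19801230 in wild type with ET-1 and 21507319 in wild type with PBS. The mutant group thus held 2.37 times the reads of wild type with ET-1. Intervals are 95% exact intervals on these reads. They hold counting error alone, and PCR copies are not independent molecules. They were computed with the smallest gene length that gave whole reads in all 3 groups, which gives the widest interval. The authors' deposited table also held a p-value per gene and comparison. These p-values were given a Benjamini-Hochberg adjustment over all genes with at least 1 FPKM in either group, and a gene was called to rise or fall at an adjusted p under 0.05. How far those p-values carry the spread between samples is not known. The log2 differences are of FPKM + 1, so changes of low genes are understated.

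The sorted cells carried neural crest markers: 7 of 8 reached 1 FPKM, and together the 8 summed to 224 FPKM in the mutant with ET-1, 226 FPKM in wild type with ET-1 and 147 FPKM in wild type with PBS. Of the 8 crest markers, 4 rose with ET-1 (Erbb3, Ets1, Ngfr and Sox10) and 1 fell in the mutant (Ets1, at 24.1 FPKM against 31.7 FPKM in wild type with ET-1, adjusted p = 0.0372 computed on the authors' deposited table). Of all genes tested, 0.39% rose with ET-1 and 3.75% fell in the mutant. Mef2c was at 10.1 FPKM in the mutant with ET-1, 25.2 FPKM in wild type with ET-1 and 7.71 FPKM in wild type with PBS. Between the 2 groups with ET-1 it fell in the mutant (adjusted p = 6.52e-11 computed on the authors' deposited table), but the mutant level was 1.31 times that of wild type with PBS. With ET-1 against PBS in wild type it rose 3.27-fold (adjusted p = 5.44e-12 computed on the authors' deposited table). These values cover the whole gene, and the deleted part is not given in the labels. Cardiac markers stayed under 1 FPKM in all groups for 7 of 9 genes and skeletal muscle markers for 4 of 6, with Nkx2-5 and Myod1 listed at 0 throughout. The 2 skeletal markers above 1 FPKM were Pax3 and Pax7, which crest cells also express. Summed levels of the 3 cardiac genes with FPKM were 7.00 FPKM in the mutant, 6.39 FPKM in wild type with ET-1 and 4.03 FPKM in wild type with PBS. The macrophage marker Cd68 was at 12.4 FPKM in the mutant, 5.54 FPKM in wild type with ET-1 and 5.70 FPKM in wild type with PBS. This rise came with an adjusted p = 0.0227 computed on the authors' deposited table, while Ptprc and Aif1 were too low to test and the 2 macrophage markers with FPKM summed to 13.2 FPKM, 5.96 FPKM and 6.22 FPKM in that order of groups. Erythroid markers with FPKM summed to 12.2 FPKM in the mutant, 24.1 FPKM in wild type with ET-1 and 27.1 FPKM in wild type with PBS. Endothelial markers with FPKM summed to 1.83, 2.46 and 2.97 FPKM, epithelial markers to 2.91, 4.09 and 5.94 FPKM, and pericyte markers to 3.45, 3.42 and 2.98 FPKM. Neural tube markers summed to 109, 99.8 and 102 FPKM. Among them Nes, an intermediate filament gene of progenitors, also rose in the mutant (38.2 FPKM against 26.1 FPKM in wild type with ET-1, and an adjusted p = 0.0183 computed on the authors' deposited table). The part of these cells in the results below was not tested. In sorted bulk samples, fewer cells of a type and less RNA per cell cannot be told apart.

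The 10 genes spanned a wide range of expression in the crest. Vcl was the most abundant and Cnn1 the least in all 3 groups. In wild type with PBS, Vcl lay at the 85.9 percentile of genes with FPKM, Srf at 74.6, Tpm1 at 74.2, Cnn2 at 59.6, Tpm2 at 50.6, Myl9 at 45.8, Tagln at 28.9, Acta2 at 24.7, Fhl2 at 9.68 and Cnn1 at 5.65. The genes known as smooth muscle markers, Tagln, Acta2 and Cnn1, were thus at low levels, below the broadly expressed adhesion and tropomyosin genes. Among neighbours in this order, Srf and Tpm1 had overlapping counting intervals (15.5 to 17.6 FPKM for Srf and 15.6 to 16.9 FPKM for Tpm1), and so did Tagln and Acta2 (1.89 to 3.06 FPKM for Tagln and 1.39 to 2.42 FPKM for Acta2). The intervals of Tpm2 and Myl9 overlapped as well, at 5.98 to 7.27 FPKM for Tpm2 and 4.60 to 6.48 FPKM for Myl9, and those of Fhl2 and Cnn1 did too, at 0.337 to 0.899 FPKM for Fhl2 and 0.209 to 0.559 FPKM for Cnn1.

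**Figure D1:**
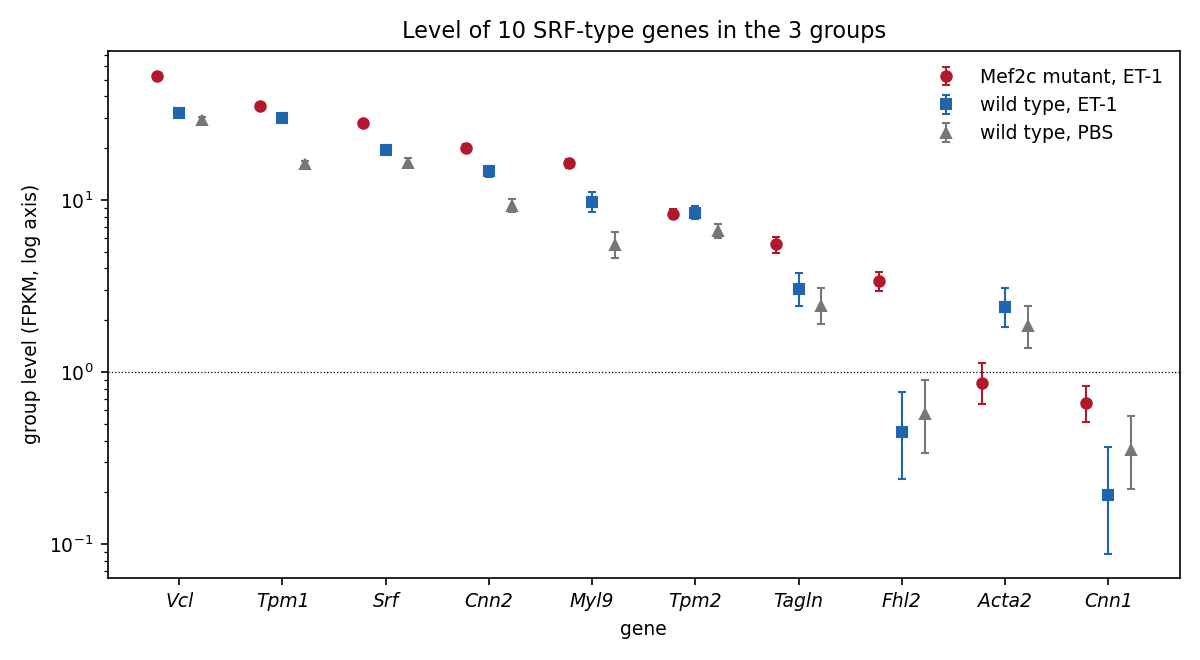
Group level of each gene in FPKM on a log axis, with 95% counting intervals from pooled reads, for the mutant with ET-1, wild type with ET-1 and wild type with PBS; the dotted line marks 1 FPKM. Vcl, Tpm1, Srf, Cnn2, Myl9 and Tagln are highest in the mutant and lowest with PBS, while Acta2 is lowest in the mutant at 0.864 FPKM.

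In 6 of the 10 members the level was highest in the mutant with ET-1, next in wild type with ET-1 and lowest in wild type with PBS: Vcl, Tpm1, Tagln, Cnn2, Myl9 and Srf. The same order held in 26.9% of 15624 genes with at least 1 FPKM in any group. Cnn1 and Fhl2 were also highest in the mutant but had their lowest level in wild type with ET-1. Tpm2 and Acta2 were highest in wild type with ET-1. Both comparisons below share the ET-1 wild-type group, so the 2 differences of a gene are not independent.

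The comparison of mutant and wild-type crest, both with ET-1, asks which genes depend on Mef2c under ET-1. Among the 10 members, 2 rose in the mutant, Vcl and Fhl2, and 0 fell, with 9 tested. Fhl2 reached the minimum level through the mutant group alone, so it could only be called higher. At a minimum of 5 FPKM the count was 1, Vcl. Over all genes tested, 1.18% rose and 3.75% fell. Adjusted over the 11855 protein-coding genes of GENCODE M21 alone, a class that holds all 10 members, the same 2 members rose, against 0.7% of genes that rose and 1.03% that fell. Values were higher in the mutant for 8 of 10 members, against 56.7% of all genes with FPKM. The median log2 difference was 0.48 over the 10 members and 0.05 over all genes tested, and the members ranged from -0.86 for Acta2 to 1.59 for Fhl2. In the authors' deposited table the p-value was under 0.05 without adjustment for 5 members with higher values and 1 with a lower value, against 4.45% and 7.12% of all genes tested.

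Vcl encodes vinculin, which links integrin and cadherin adhesions to actin filaments. Its gene (ENSMUSG00000021823) lies on chromosome 14 at 21748655 to 21852895 in build mm9. Vcl was at 52.3 FPKM in the mutant with ET-1, 31.8 FPKM in wild type with ET-1 and 29.1 FPKM in wild type with PBS. The mutant thus stood above both wild-type groups, which lay close to each other. The rise was 1.64-fold (interval 1.56 to 1.73), at an adjusted p = 0.000821 computed on the authors' deposited table. Its 3′ end overlaps the adaptor complex gene Ap3m1, and 25.1% of its 50-base words in GENCODE M21 are shared with that gene, so reads there could be assigned to either. Ap3m1 itself was at 21.4 FPKM in the mutant, 15.1 FPKM in wild type with ET-1 and 14.7 FPKM in wild type with PBS, and did not pass the test in the mutant (adjusted p = 0.125 computed on the authors' deposited table). A gene model inside Vcl, AC163681.1, was at 17.5 FPKM, 4.68 FPKM and 3.96 FPKM in the same order of groups.

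Fhl2 encodes a protein of LIM domains that binds SRF and other factors and is itself an SRF target. Its gene (ENSMUSG00000008136) lies on chromosome 1 at 43179919 to 43220714 in mm9. Fhl2 was at 3.36 FPKM in the mutant with ET-1, 0.446 FPKM in wild type with ET-1 and 0.569 FPKM in wild type with PBS. These values rested on 232, 13 and 18 pooled reads. The gene was thus barely detected in either wild-type group and clearly detected in the mutant. The rise was 7.53-fold (interval 4.32 to 14.4), at an adjusted p = 0.00125 computed on the authors' deposited table. Fhl2 passed the minimum of 1 FPKM through the mutant group alone, and at a minimum of 5 FPKM it was not tested.

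Srf, Myl9, Cnn2 and Tagln had higher values in the mutant that did not pass the adjusted test. Srf (ENSMUSG00000015605, chromosome 17, 46685284 to 46693124 in mm9) lies within the span of the gene model CT030702.1, which was at 0, 0.521 and 0.479 FPKM. Srf was at 28.0 FPKM in the mutant, 19.6 FPKM in wild type with ET-1 and 16.5 FPKM in wild type with PBS, which gave a ratio of 1.43 for mutant to wild type (interval 1.33 to 1.53) and an adjusted p = 0.173 computed on the authors' deposited table. Myl9 (ENSMUSG00000067818, chromosome 2, 156601156 to 156607394 in mm9) encodes a regulatory light chain of smooth muscle and non-muscle myosin II. It was at 16.3 FPKM in the mutant, 9.78 FPKM in wild type with ET-1 and 5.48 FPKM in wild type with PBS. Its ratio was 1.67 (interval 1.44 to 1.94), at an adjusted p = 0.233 computed on the authors' deposited table. The counting intervals of all 4 lay above 1, but the group values hold no spread between samples.

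Cnn2 encodes a calponin, an actin-binding protein that is widespread outside smooth muscle, from chromosome 10 at 79451329 to 79458807 in mm9 (ENSMUSG00000004665). It was at 20.2 FPKM in the mutant, 14.7 FPKM in wild type with ET-1 and 9.26 FPKM in wild type with PBS, with a mutant ratio of 1.37 (interval 1.26 to 1.49) and an adjusted p = 0.419 computed on the authors' deposited table. Tagln (ENSMUSG00000032085, chromosome 9, 45737711 to 45743981 in mm9) encodes the actin-binding protein transgelin. It was at 5.51 FPKM in the mutant, 3.04 FPKM in wild type with ET-1 and 2.43 FPKM in wild type with PBS. Its mutant ratio was 1.81 (interval 1.42 to 2.33), at an adjusted p = 0.517 computed on the authors' deposited table. Its span in mm9 overlaps that of the protease gene Pcsk7 by 65 bases. In the later GENCODE M21 models, 58.3% of its 50-base words are shared with Pcsk7 or the model Gm48529. How many of its reads are uncertain in the deposited values is therefore not known. Pcsk7 was at 6.57 FPKM, 4.10 FPKM and 4.09 FPKM in the same order of groups.

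Acta2 was the only member whose counting interval lay below 1 in the mutant. It encodes smooth muscle alpha-actin, the usual first marker of smooth muscle differentiation. The gene (ENSMUSG00000035783) lies on chromosome 19 at 34316014 to 34329810 in mm9. Acta2 was at 0.864 FPKM in the mutant with ET-1, 2.39 FPKM in wild type with ET-1 and 1.85 FPKM in wild type with PBS, on 54, 63 and 53 pooled reads. The mutant interval of 0.649 to 1.13 FPKM lay below both wild-type intervals, 1.84 to 3.06 FPKM with ET-1 and 1.39 to 2.42 FPKM with PBS. The ratio of mutant to wild type with ET-1 was 0.362 (interval 0.247 to 0.529), at an adjusted p = 0.323 computed on the authors' deposited table. The difference did not pass the test. By the shared-word check used for Vcl, 7 of the 2146 words of Acta2 (0.326%) are shared with Actg1, Actg-ps1 and other gene models. Reads there could be assigned to any of these. Actg1, another actin gene, was far more abundant, at 413 FPKM in the mutant, 376 FPKM in wild type with ET-1 and 442 FPKM in wild type with PBS. How many of the few Acta2 reads are uncertain was not tested.

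The tropomyosins coat and stabilise actin filaments. Tpm1 was at 34.9 FPKM in the mutant and 30.0 FPKM in wild type with ET-1, a ratio of 1.17 (interval 1.12 to 1.21) at an adjusted p = 0.844 computed on the authors' deposited table. Tpm2 (ENSMUSG00000028464, chromosome 4, 43527583 to 43536637 in mm9) was at 8.31 FPKM in the mutant and 8.44 FPKM in wild type with ET-1, a ratio of 0.985 (interval 0.884 to 1.10), and was the member whose ratio lay nearest to 1. Cnn1, the smooth muscle calponin gene (ENSMUSG00000001349, chromosome 9, 21903725 to 21914074 in mm9), stayed under 1 FPKM in all groups and was not tested. It was at 0.657 FPKM in the mutant, 0.192 FPKM in wild type with ET-1 and 0.353 FPKM in wild type with PBS, on 73, 9 and 18 pooled reads.

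**Figure D2:**
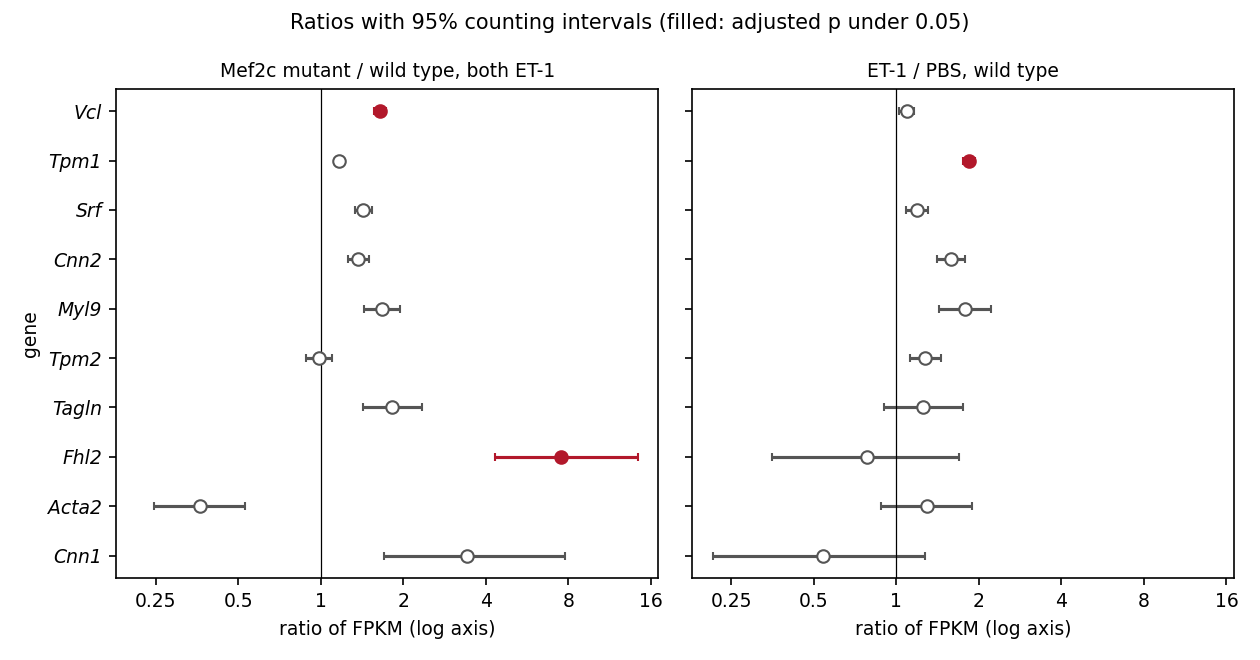
Ratio of FPKM on a log axis for mutant over wild type with ET-1 (left) and for ET-1 over PBS in wild type (right), with 95% exact counting intervals; filled points passed the adjusted test. Vcl at 1.64 and Fhl2 at 7.53 passed in the mutant, Tpm1 at 1.84 passed with ET-1, and Acta2 at 0.362 is the member farthest below 1 in the mutant.

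The comparison of ET-1 and PBS in wild-type crest asks which genes ET-1 induces. Here 1 member rose, Tpm1, and 0 fell, with 8 tested, since Cnn1 and Fhl2 stayed under 1 FPKM in both groups. Over all genes tested, 0.39% rose and 0.143% fell. Values were higher with ET-1 for 8 of 10 members, against 52% of all genes with FPKM. The median log2 difference was 0.24 over the 10 members, from -0.18 for Cnn1 to 0.84 for Tpm1, and 0.01 over all genes tested. Over the 6 members at 5 FPKM or more it was 0.46.

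Tpm1 (ENSMUSG00000032366) lies on chromosome 9 at 66870397 to 66897213 in mm9. It was at 30.0 FPKM with ET-1 and 16.2 FPKM with PBS in wild type, on 3849 and 2266 pooled reads. The rise was 1.84-fold (interval 1.75 to 1.94), at an adjusted p = 4.21e-06 computed on the authors' deposited table. The mutant with ET-1, at 34.9 FPKM, was at 2.15 times the PBS level. Tpm2 was at 8.44 FPKM with ET-1 and 6.60 FPKM with PBS, a ratio of 1.28 (interval 1.12 to 1.46) that did not pass the test. Tpm1 was 4.205 times as abundant as Tpm2 in the mutant, 3.55 times in wild type with ET-1 and 2.46 times in wild type with PBS. Beside this rise, the neural crest marker sum was 226 FPKM with ET-1 and 147 FPKM with PBS, and the part of that shift in the rise was not tested. The 2 tropomyosin genes shared no 50-base word with each other or with other genes in GENCODE M21.

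Myl9 and Cnn2 had the next largest ratios of ET-1 to PBS after Tpm1. Cnn2 was at 14.7 FPKM with ET-1 and 9.26 FPKM with PBS, a ratio of 1.59 (interval 1.41 to 1.78) at an adjusted p = 0.463 computed on the authors' deposited table. Myl9 was at 9.78 FPKM with ET-1 and 5.48 FPKM with PBS, a ratio of 1.78 (interval 1.44 to 2.22) at an adjusted p = 1.00 computed on the authors' deposited table. Their unadjusted p-values, 0.00667 for Cnn2 and 0.0420 for Myl9 in the authors' deposited table, were under 0.05. Together with Tpm1 that made 3 members with higher values and 0 with lower ones, against 2.49% and 2.01% of all genes tested. Vcl, which rose in the mutant, was at 31.8 FPKM with ET-1 and 29.1 FPKM with PBS, a ratio of 1.09 (interval 1.03 to 1.17). Srf stood at a ratio of 1.19 (interval 1.09 to 1.302), and neither passed the test. The counting intervals of Tagln (0.902 to 1.75), Acta2 (0.882 to 1.90), Fhl2 (0.353 to 1.69) and Cnn1 (0.215 to 1.27) all included 1. Tagln and Acta2 did not pass the test, and Fhl2 and Cnn1 were not tested in this comparison.

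The authors' deposited list of 406 genes induced by ET-1 held 3 members, Tpm1, Cnn2 and Myl9, and 2.27% of the 17856 genes with FPKM in both wild-type groups. Their normalized induction folds in the authors' deposited table were 1.80 for Tpm1, 1.55 for Cnn2 and 1.74 for Myl9. All 3 carried the mark for a MEF2 binding motif in the authors' deposited table, as did 83.3% of the list. None of these 3 was marked as Mef2c dependent there, where 17.98% of the list was. In the mutant each of the 3 had a value above wild type with ET-1.

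**Figure D3:**
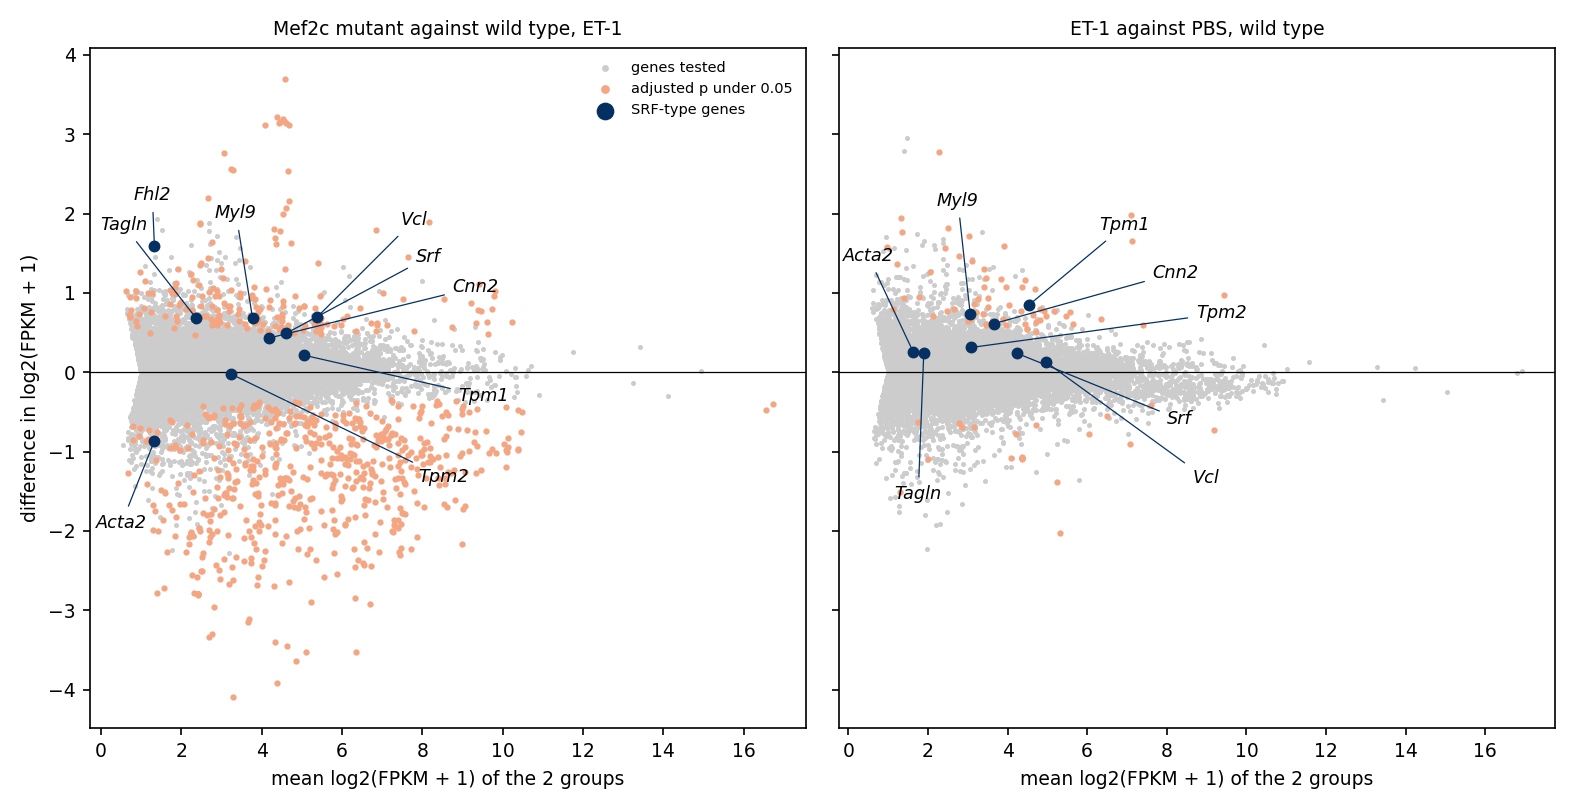
Difference in log2(FPKM + 1) against the mean log2(FPKM + 1) for every gene tested in each comparison (grey), genes with an adjusted p under 0.05 (orange) and the members that were tested (blue, 9 in the mutant and 8 with ET-1). Of the called genes, 580 fell and 183 rose in the mutant (122 and 83 when adjusted over protein-coding genes alone), and Vcl and Fhl2 lie among those that rose.

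Among SRF's partners, 0 of 7 tested cofactor genes passed in either comparison. Shares over all genes tested were 1.18% higher and 3.75% lower in the mutant, and 0.39% higher and 0.143% lower with ET-1. At such shares a count of 0 among 7 genes is a description and no finding about cofactors. The median log2 difference of the 9 with FPKM was 0.11 in the mutant and 0.16 with ET-1, against 0.05 and 0.01 over all genes tested. The MRTF genes Mkl1 and Mkl2 were both expressed, Mkl1 at 7.71 FPKM in the mutant, 6.32 FPKM in wild type with ET-1 and 5.52 FPKM with PBS, and Mkl2 at 15.5, 14.2 and 12.6 FPKM in the same order. Myocd, the cofactor that drives smooth muscle differentiation, was at 0.159, 0.141 and 0.159 FPKM. Fhl1, a LIM-domain relative of Fhl2, was at 25.1, 22.5 and 24.99 FPKM and thus far above Fhl2 in all groups. Elk4, a ternary complex factor, was at 17.9, 18.5 and 16.03 FPKM.

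In a wider list of 23 actin cytoskeleton targets of SRF, 2 rose and 0 fell in the mutant, and 1 rose and 0 fell with ET-1. Of all genes tested, 1.18% rose and 3.75% fell in the mutant, and 0.39% rose and 0.143% fell with ET-1. The median log2 difference of the list was 0.17 in the mutant and 0.26 with ET-1, against 0.05 and 0.01 over all genes tested. The list was chosen with earlier results of these data known, so its counts are a description. The 2 listed genes that rose in the mutant were Tgfb1i1, which encodes the focal adhesion protein Hic-5, and Wdr1, an actin-severing cofactor of cofilin. Tgfb1i1 was at 13.3 FPKM in the mutant, 7.27 FPKM in wild type with ET-1 and 8.55 FPKM with PBS, at an adjusted p = 0.00134 for the mutant computed on the authors' deposited table. Wdr1 was at 25.6, 15.4 and 12.4 FPKM in the same order, at an adjusted p = 0.00656 computed on the authors' deposited table. With ET-1 the rise was in Lpp, a zyxin relative of focal adhesions, at 17.8 FPKM with ET-1 and 10.8 FPKM with PBS and at an adjusted p = 0.0415 computed on the authors' deposited table. Lpp was at 17.5 FPKM in the mutant. The cytoplasmic actin gene Actb, the most abundant of the list, was at 774 FPKM in the mutant, 689 FPKM in wild type with ET-1 and 722 FPKM with PBS, and Cfl1, cofilin, at 494, 407 and 387 FPKM. Neither passed the test.

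Among 9 immediate early genes that SRF controls with ternary complex factors, 4 rose and 0 fell in the mutant, and 1 rose with ET-1. Of all genes tested, 1.18% rose and 3.75% fell in the mutant, and 0.39% rose with ET-1. The median log2 difference of the 9 genes was 0.58 in the mutant and 0.24 with ET-1, against 0.05 and 0.01 over all genes tested. This list too was chosen with earlier results of these data known, so its counts are a description. Fos was at 39.2 FPKM in the mutant, 21.9 FPKM in wild type with ET-1 and 18.4 FPKM with PBS, at an adjusted p = 0.000328 for the mutant computed on the authors' deposited table. The others that rose in the mutant were the zinc finger factor genes Egr1, Egr2 and Egr3. Egr1 was at 183 FPKM in the mutant, 90.7 FPKM in wild type with ET-1 and 66.5 FPKM with PBS, Egr2 at 9.04, 3.82 and 3.37 FPKM, and Egr3 at 10.9, 2.82 and 3.22 FPKM. The orphan receptor gene Nr4a1 was the 1 that rose with ET-1, at 10.4 FPKM against 3.15 FPKM with PBS, and it was at 9.14 FPKM in the mutant. Mcl1, a survival gene, was at 46.3, 38.4 and 39.9 FPKM and did not pass in either comparison.

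Of the genes that SRF shares with YAP and TEAD factors, Ctgf and Cyr61, which encode secreted matricellular proteins, both rose with ET-1 among 3 tested, and 0 passed in the mutant. Of all genes tested, 0.39% rose with ET-1, and in the mutant 1.18% rose and 3.75% fell. This short list was also chosen with earlier results of these data known. Ctgf was at 36.2 FPKM with ET-1 and 20.5 FPKM with PBS, at an adjusted p = 0.00784 computed on the authors' deposited table, and stood at 37.8 FPKM in the mutant. Cyr61 was at 55.6 FPKM with ET-1 and 33.8 FPKM with PBS, at an adjusted p = 0.00685 computed on the authors' deposited table, and stood at 58.4 FPKM in the mutant. Tpm1 and Lpp also rose with ET-1 and did not pass in the mutant, with mutant levels of 34.9 and 17.5 FPKM beside 30.0 and 17.8 FPKM in wild type with ET-1. Vcl, Tgfb1i1 and Wdr1 passed in the mutant and not with ET-1, and whether the 2 comparisons differ was not tested.

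Of 11 further smooth muscle genes, 5 were tested and 0 passed in either comparison, and 6 stayed under 1 FPKM or were too low to test in all groups. Over all genes tested, 1.18% rose and 3.75% fell in the mutant, and 0.39% rose and 0.143% fell with ET-1. A count of 0 among 5 genes is therefore a description. Values were higher in the mutant than in wild type with ET-1 for 6 of the 9 genes with FPKM, with a median log2 difference of 0.11. Csrp1, a LIM protein of actin fibres, was at 24.1 FPKM in the mutant, 20.1 FPKM in wild type with ET-1 and 12.4 FPKM with PBS, and the smoothelin gene Smtn at 7.39, 6.65 and 6.25 FPKM. Smooth muscle myosin Myh11 was at 0.275, 0.184 and 0.212 FPKM. Des, the muscle filament gene desmin, was at 0.766 FPKM in the mutant, 1.76 FPKM in wild type with ET-1 and 0.974 FPKM with PBS, and like Acta2 had its lowest value in the mutant without passing the test.

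**Figure D4:**
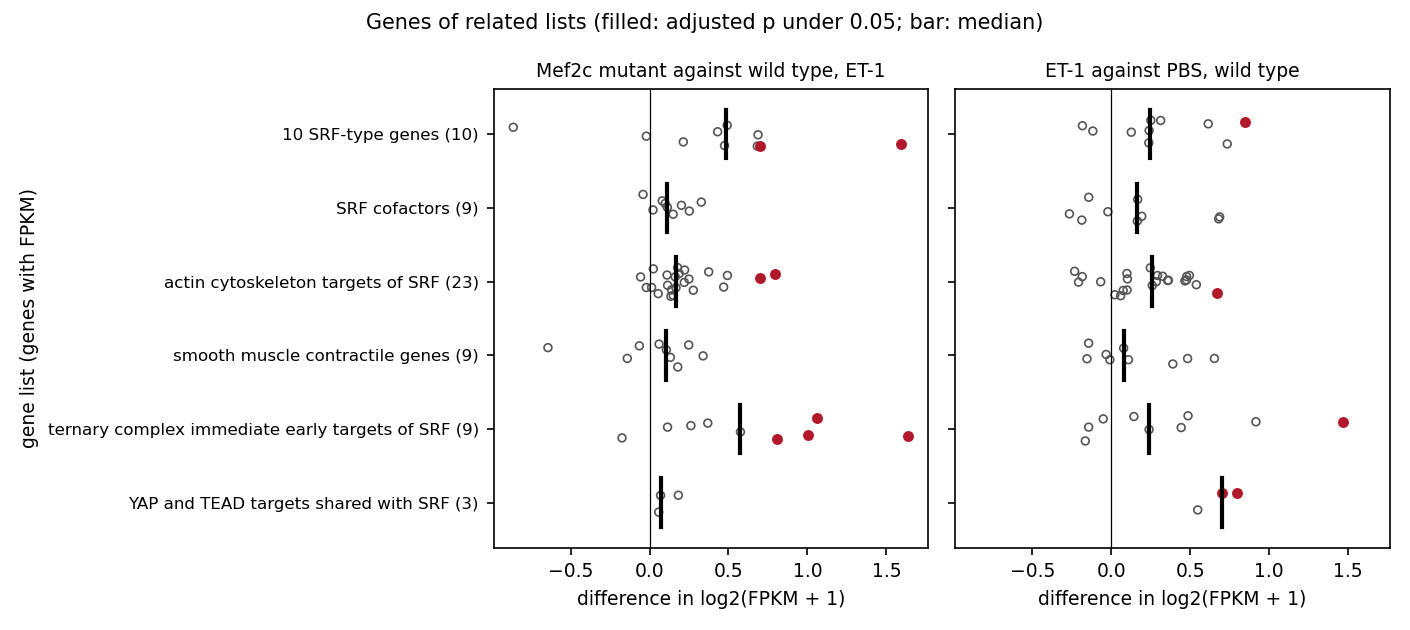
Difference in log2(FPKM + 1) of each gene with FPKM in the 10 SRF-type genes and in each related list described here, for mutant against wild type with ET-1 (left) and ET-1 against PBS (right); bars are medians and filled points passed the adjusted test. Immediate early targets have the highest median in the mutant at 0.58, and the genes shared with YAP and TEAD the highest with ET-1 at 0.70.

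The genes whose pair of log2 differences lay nearest to that of a called member were listed among named genes with at least 5 FPKM in a group, over 3 group values. Nearest to Vcl were Rassf3 (distance 0.02 on the log2 scale), Iffo2 (0.07) and Phyh (0.07). Nearest to Tpm1 were the metalloprotease inhibitor gene Timp3 (0.08), the natriuretic peptide receptor gene Npr3 (0.09) and the crest and glial factor gene Sox10 (0.09). Nearest to Fhl2 were the immediate early gene Egr3 (0.05) and the histocompatibility gene H2-Ab1 (0.15), followed by a small nucleolar RNA, snosnR60_Z15 (0.27). The closeness to Egr3 rests on the pseudocount of 1 FPKM, which shrinks the difference of a gene as low as Fhl2. As plain FPKM ratios of mutant to wild type with ET-1, Fhl2 stood at 7.53 and Egr3 at 3.86. With only 3 group values, many genes lie close to any pattern, and the likeness is a description.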

How the data were processed

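Per the file headers, the authors gave each of 3 groups an FPKM value per gene, with a p-value of the authors for each of 2 comparisons, judged unadjusted because nearly all genes had their own value. A second deposited list held a normalized induction fold, a ratio made by the authors, with motif and dependence marks. The submitters' processing notes name TopHat 1.3.1, Cufflinks 1.3.0, Cuffdiff and build mm9, and the labels' protocols name the kits (RNeasy Micro, NuGEN Ovation and Encore). The sources used here do not give the test behind the p-values or how replicates were combined. In 15639 of 33495 genes the wild-type values were small whole numbers with a p of 1, and these were not used as FPKM. There were 0 columns of other samples.

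The p-values were adjusted by the Benjamini-Hochberg method (SciPy 1.17.1) over 15395 genes for ET-1 and 15459 for the mutant, with at least 1 FPKM in either group and FPKM in both. The pseudocount was 1 FPKM. Pooled reads were recovered from FPKM: in single-exon genes of GENCODE M21, 92.4% to 92.7% of values per group were within 0.02 of a whole read. Model lengths equalled the GENCODE M21 exon length in 4 members. For the others a multiple of the length used may be the true one, and intervals would then be narrower. Read recovery, adjusted calls and fold intervals were tested on simulated counts without spread between samples. The authors' p-values were not part of that test, so it says nothing of them. No model over samples could be fitted, because group values were given.

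The members and lists were chosen with earlier results of these data known, so counts over lists describe them. Named genes were all 10 members, genes of each list that passed either test or had the 2 highest levels, and nearest genes by log2 differences. Others, such as Mkl1, Mkl2, Myocd, Myh11 and Des, were named after their values were seen. Another related list is not reported here.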

Additional observations from a re-analysis of the deposited data

How the results depend on the processing

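No paired analysis was possible because the table gives a single value per group, and for the same reason no replicate could be left out. The calls of Vcl and Tpm1 held under every alternative run: no minimum level, a minimum of 5 FPKM, the unadjusted p-value, a fold of at least 1.5 and adjustment over protein-coding genes. Fhl2 held under all of these except the minimum of 5 FPKM, which left it untested and 1 member called in the mutant (Vcl) in place of 2. Every run reused the same deposited p-values, so none probed the spread between samples. The unadjusted and fold runs could not have undone the calls of Vcl, Tpm1 or Fhl2. Of the 10 members, 3 had an unadjusted p under 0.05 with ET-1, where 694 of all genes tested did, against 82 with the adjusted p. In the mutant 6 did, where 1788 of all genes tested did, against 763. Over protein-coding genes alone, 205 genes were called in the mutant, 83 higher and 122 lower. The members' median log2 difference was 0.61 in the mutant with a pseudocount of 0.1 FPKM, and 0.46 with ET-1 over the 6 members at 5 FPKM or more, which leaves out the low genes by construction. Centring on the median of genes tested or a common upper quartile reversed no member, and the medians shifted by 0.05 at most. Over members at 1 FPKM or more, an alternative added once the data had been seen, the medians were 0.49 in the mutant and 0.28 with ET-1. The mutant group held 2.37 times the reads of wild type with ET-1, so low genes such as Cnn1 were measured most coarsely in wild type.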
